A study of Mus musculus with 18 samples.

Results

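Mouse double negative T cells that had received an inhibitor of the adenosine A2a receptor alone (R) were compared with untreated ones (DNT). The comparison holds 3 R and 3 DNT libraries, 6 of the 18 RNA-seq libraries of the series, chosen by their column names in the count tables, over the 53465 genes that both tables list. Il10, a granzyme group and the genes of ribosomes and the respiratory chain were higher in R, and NR4A factors and interferon-induced genes were lower. Among the lists examined, 77 of 78 cytosolic ribosomal protein genes were higher and 26 of 40 interferon-induced genes were lower, where 30.9% of all genes tested were higher and 33.4% lower.

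Double negative T cells carry neither CD4 nor CD8 on their surface, and here they had been derived from CD4+ T cells. How that conversion was done, how long the inhibitor was present, whether mice were pooled and the age of the mice are not stated in the labels. All groups used below came from wild type spleen and lymph node and had received anti-CD3/CD28 antibody, which triggers the T cell receptor and its CD28 costimulator. R also received 250 nM of an A2aR inhibitor that the labels do not name, and DNT received nothing further. Another 3 untreated libraries (WT) belong to a set of their own, and adenosine at 400 µM for 6 h was given without the inhibitor (ADO) or together with it (RA).

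The tables fall into 3 sets of 6 libraries: WT with a group given ATPgs, DNT with ADO, and R with RA. No library without the inhibitor is in the set of R, so the inhibitor and the set cannot be told apart in any difference given below. Whether the 3 libraries of each group are separate cultures or mice is not stated, so p-values measure only the spread between them, which may be technical. WT and DNT bear labels that state the same treatment, and their difference shows how far sets can differ without the inhibitor: 23 of 30 tested T cell cytokine genes were higher in WT than in DNT, where 32% of all genes tested were.

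Adenosine builds up outside activated or damaged cells when the ectoenzymes CD39 and CD73 strip phosphates from ATP. On T cells it acts mainly through the A2a receptor, which couples to the stimulatory G protein, raises cyclic AMP and activates protein kinase A. That kinase phosphorylates CREB, which binds the cyclic AMP response element in promoters such as those of the NR4A genes, and the pathway is known for restraining T cell receptor signalling, cytokine release and killing.

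Total counts ran from 21967706 to 23855783 in DNT and from 20156082 to 22914344 in R, so depth was alike. The R libraries nevertheless differed in composition. Cytosolic ribosomal protein genes took 10.5% to 16.0% of counts in R and 5.34% to 5.42% in DNT, and mitochondrially encoded genes took 3.14% to 5.47% and 1.66% to 1.70%. Genes with at least 10 counts numbered 12473 to 13109 in R and 14387 to 14639 in DNT. Spread was also unequal: the common biological coefficient of variation was 26.5% among the R libraries and 2.44% among the DNT libraries, and the second and the third R library lay farthest apart. T cell transcripts were plentiful in both groups. The 24 listed genes of T cell identity summed to 4889 to 4949 CPM in DNT and 6530 to 7544 CPM in R. All 24 passed the filter on low counts, which by itself does not show identity. Of these, 11 were higher and 8 lower in R (median 0.07, and -0.51 with library size alone). Cd3g, a chain of the T cell receptor complex, had 189, 195 and 192 CPM in DNT and 627, 495 and 953 CPM in R. Trac, the constant chain of the αβ receptor, had 156, 158 and 158 CPM in DNT and 111, 106 and 131 CPM in R, and the transcription factors Bcl11b and Ets1 were also lower in every R library, at 11.4 to 22.9 CPM against 27.7 to 29.9 CPM and at 122 to 233 CPM against 325 to 327 CPM. The calls of Trac and Ets1 were lost without any 1 of the DNT libraries or the first R library, that of Bcl11b without the third DNT or the first R library, and those of Bcl11b and Ets1 with an offset for transcript length and GC content. By contrast, Cd4 lay between 0.715 and 1.11 CPM in DNT and between 1.04 and 2.09 CPM in R.

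Of 14128 genes tested, 4369 (30.9%) were higher and 4719 (33.4%) were lower in R than in DNT by edgeR's quasi-likelihood test with Benjamini-Hochberg adjustment, at an adjusted p under 0.05. Of these, 2686 and 2938 differed at least 2-fold, and the median log2 fold change of all genes tested was -0.05. Groups did not overlap in 35.2% of the genes with R higher and in 39% with R lower. Here and below, CPM are counts scaled by library size and TMM factors, not divided by transcript length, and adjusted p values come from that test. Where few members of a list moved in a direction, all of them are named, and Trac, Bcl11b, Ets1, Cd3e, Lck, Zap70, Klra1, Klra3, Sox13, C1qb, C1qc and Lyz2 are named too, which was decided after their values were seen. So was the naming of Trbc1, Trbc2 and Cd8b1, which are given by CPM only and left out of the counts of named genes. The split depended on the scaling. With library size alone, 2137 genes (15.1%) were higher and 6950 (49.2%) lower, and the median of all genes moved to -0.62, while RLE and upper quartile factors gave 4407 and 4287 higher and 4739 and 4813 lower. Values of R against DNT given below with library size alone stand beside that median of -0.62. The R libraries had TMM factors of 0.651 to 0.940 and the DNT libraries of 1.23 to 1.24.

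Fold changes followed transcript length, taken as the summed length of all annotated exons of a gene. Among genes of 12 to 1002 bases, the median log2 fold change of R against DNT was 1.38, and 61.2% were higher and 21.9% lower. The genes were cut into 10 bins of nearly equal size by length, and the median fell from bin to bin to -0.75 among those of 9318 to 123180 bases, of which 9.21% were higher and 61.5% lower. The same trend ran from 1.47 to -0.80 in R against WT and from 1.37 to -0.61 in RA against ADO, but only from -0.14 to 0.06 between the untreated sets WT and DNT. The trend thus went with the set that held the inhibitor, and its source was not tested. An offset for transcript length and GC content, added after the data were seen, left 4498 genes (31.8%) higher and 4136 (29.3%) lower. It kept the call and direction of 3288 (75.3%) of the higher and 3513 (74.4%) of the lower genes. Among the genes named in the text that kept their sign, it ended the call of 26 and added a call for 5. It turned the sign of 8 others, of which Cd68, Kdm3a, Mcoln1, Psmb5, Srebf1 and Unc13d also lost their calls and Tnf gained one.

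**Figure D1:**
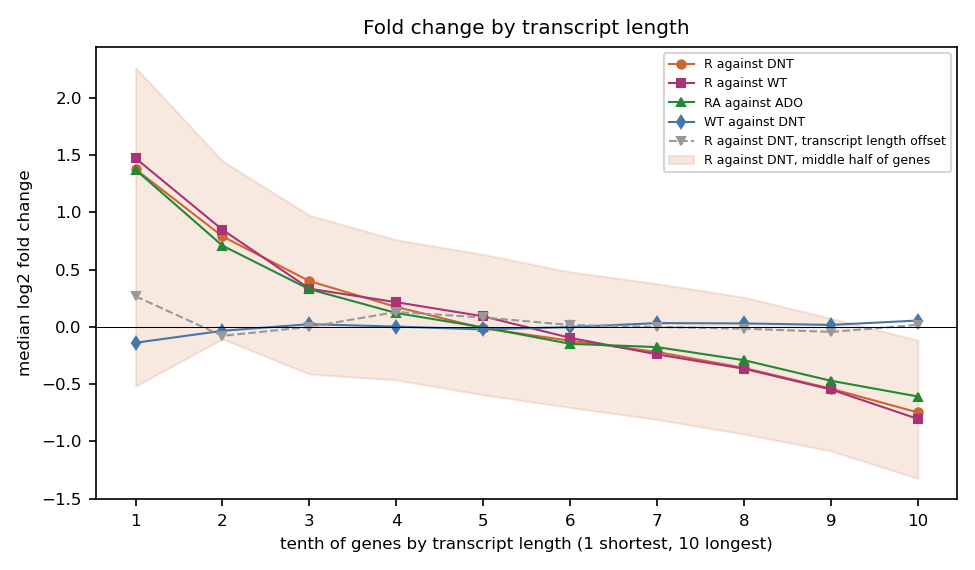
Median log2 fold change (vertical axis) in each of 10 bins of genes by summed exon length (horizontal axis, 1 shortest to 10 longest) for 4 comparisons, with the middle of the R against DNT values shaded from the lower to the upper quartile. The comparisons with R or RA run from 1.37 to 1.47 down to between -0.61 and -0.80, WT against DNT stays between -0.14 and 0.06, and the dashed line shows R against DNT with a transcript length offset.

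The 12 largest rises were in Cma1, Ctsg, Klrg1, Tmem119, Ly6g, Tyrobp, Il10, Gzmg, Gpx8, Khdc1a, Speer1 and Gzmk, with log2 fold changes from 4.01 to 5.85. They mix granule proteases (Cma1, a mast cell chymase, Ctsg, cathepsin G, and the granzymes Gzmg and Gzmk), receptors and adaptors of effector lymphocytes and myeloid cells (Klrg1, Tyrobp, Ly6g) and the cytokine Il10. Klrg1, an inhibitory receptor of terminally differentiated T and NK cells, had 0.849, 1.37 and 1.72 CPM in DNT and 62.4, 48.9 and 62.0 CPM in R (log2 fold change 5.46, SE 0.27, adjusted p = 5.09e-05). Tyrobp, which encodes the ITAM adaptor DAP12, had 3.33, 2.82 and 3.29 CPM in DNT and 92.9, 69.0 and 103 CPM in R (log2 fold change 4.81, SE 0.21, adjusted p = 5.03e-05). For both genes the groups stood far apart and the R libraries were close to each other.

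Cma1 and Ctsg also differed between the untreated sets. Cma1 had 0.238, 0.519 and 0.286 CPM in DNT and 19.0, 17.3 and 24.5 CPM in R (log2 fold change 5.85, SE 0.30, adjusted p = 5.09e-05), but the other untreated set exceeded DNT by 6.64 on the log2 scale, and R against WT was -0.72. Ctsg had 0.543, 0.742 and 0.965 CPM in DNT and 31.3, 25.01 and 43.4 CPM in R, with 5.46 against DNT, 0.95 against WT and 4.57 for WT against DNT. Klrg1 (5.09), Tyrobp (3.14), Il10 (6.61) and Gzmk (4.85), by contrast, were also above WT. The median length of the 12 genes that rose was 1106.5 bases and that of the 12 that fell 5126.5 bases, and all 24 kept their calls with the length and GC offset. In bulk RNA, a change in the number of cells of a kind and a change in RNA per cell cannot be told apart. Reads of Gzmg, Khdc1a, Speer1 and Ly6g could be shared with near-identical family members, so their counts are uncertain.

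The 12 largest falls were in Dpm1, Plppr3, Ramp3, Xrcc3, Cldnd2, Palm3, Rnf213, Klf3, Wdr90, Dennd6b, Oasl2 and Adgrg5, with log2 fold changes from -3.67 to -2.87. Dpm1, the catalytic subunit of dolichol-phosphate mannose synthase, had 12.6, 10.4 and 10.2 CPM in DNT and 0.681, 1.07 and 0.815 CPM in R (log2 fold change -3.67, SE 0.23, adjusted p = 7.95e-05). Ramp3, a partner that sets the ligand preference of the calcitonin-like receptor, had 14.9, 14.3 and 13.7 CPM in DNT and 1.59, 1.63 and 1.04 CPM in R (log2 fold change -3.30, SE 0.20, adjusted p = 7.68e-05). Klf3, a repressor related to the quiescence factor Klf2, had 12.6, 12.8 and 14.5 CPM in DNT and 1.65, 1.999 and 1.04 CPM in R (log2 fold change -3.05, SE 0.23, adjusted p = 0.000115). In all 3 genes the R libraries lay together, far below every DNT library. The giant ubiquitin ligase Rnf213, an interferon-induced gene, fell from 503, 506 and 517 CPM to 41.0, 92.6 and 46.3 CPM (log2 fold change -3.08, SE 0.32, adjusted p = 0.000318). Plppr3 shares an exon with the far more abundant Ptbp1 on the opposite strand, Xrcc3 with Klc1 and Palm3 with Il27ra. Since the strand setting of the counting is not given, their counts cannot be told from those of their partners. Wdr90 shares one with Rhot2 on its own strand. Among 595 genes that share an exon with an opposite-strand gene at least 10 times higher, 50.9% were lower in R and 12.6% higher, beside 31.6% and 32.5% of the 11309 genes that share no exon. Of the 308 protein-coding ones 39.6% were lower and 17.9% higher, beside 31.1% and 30.3% of 9416 protein-coding genes that share no exon. Plppr3 is among the 308, whereas the partners of Xrcc3 and Palm3 were less than 10 times higher.

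**Figure D2:**
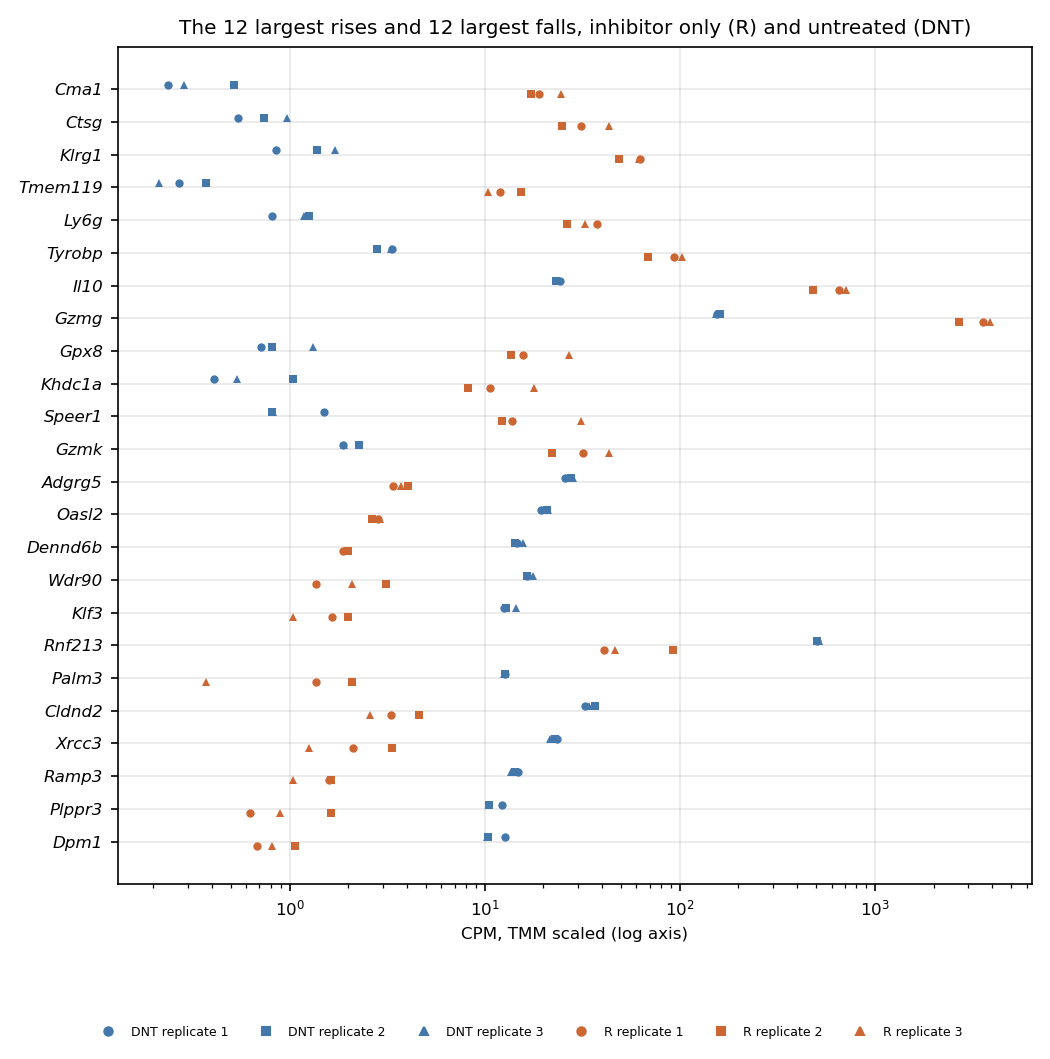
CPM (log axis) in each of the 3 DNT and 3 R libraries for the genes with the largest rises (upper rows) and falls (lower rows). In every row the DNT and R points do not overlap, as the rule for naming these genes required.

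The cytokine with the largest difference was Il10, which encodes the anti-inflammatory interleukin 10 and lies at chr1:131019845-131024974 (GRCm38). It had 24.2, 23.3 and 23.7 CPM in DNT and 653, 485 and 715 CPM in R (log2 fold change 4.70, SE 0.20, adjusted p = 5.03e-05). The lowest R library stood far above the highest DNT library. WT lay below DNT (-1.85), so that R against WT came to 6.61, and with adenosine in both groups RA exceeded ADO by 5.89. Il24, its neighbour in the Il10 family, had 27.6, 26.6 and 27.7 CPM in DNT and 297, 242 and 269 CPM in R (log2 fold change 3.30, SE 0.15, adjusted p = 5.03e-05), and it too stood above WT (4.52).

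The rest of the cytokine list was mixed. Of 30 tested T cell cytokine genes, 14 were higher and 5 lower, with a median log2 fold change of 0.44 (-0.15 with library size alone) beside -0.05 over all genes tested. With the length and GC offset these became 8 higher and 16 lower with a median of -0.53, and against WT, where 32.6% of all genes were higher and 36.5% lower, 10 were higher and 16 lower (median -0.89). Ifng, the defining Th1 cytokine, had 1198, 1186 and 1225 CPM in DNT and 2531, 2059 and 5282 CPM in R (log2 fold change 1.45, SE 0.35, adjusted p = 0.00822). The third R library was the highest, and with the length and GC offset the log2 fold change of Ifng was 0.02 (adjusted p = 0.932). Il2, the T cell growth factor, had 49.3, 50.2 and 50.3 CPM in DNT and 75.1, 53.2 and 109 CPM in R (log2 fold change 0.66, SE 0.25, adjusted p = 0.0447). Its sign turned to -0.87 with the length and GC offset (adjusted p = 0.000385), and against WT it was -1.82. Il2 also lost its call without any 1 of the DNT libraries and without the first R library. Tnf did not pass the test at 0.32 (adjusted p = 0.0773), and was -0.41 with the length and GC offset (adjusted p = 0.0228). The 5 that fell were Il22, Tnfsf8, Cd40lg, Lif and Csf1. Lif, a cytokine of the interleukin 6 family, went from 585, 573 and 579.9 CPM to 154, 231 and 158 CPM (log2 fold change -1.68, SE 0.19, adjusted p = 0.000441), and Csf1, the macrophage growth factor, went from 12.9, 11.9 and 11.5 CPM to 4.60, 5.02 and 4.52 CPM (log2 fold change -1.36, SE 0.14, adjusted p = 0.00032). Both also fell with the length and GC offset.

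Granule killing genes were higher in R, led by the granzymes, serine proteases that enter target cells through pores of perforin. Of 29 tested cytotoxic effector genes, 17 were higher and 3 lower (median 0.86), and the R libraries had medians of 0.84, 0.51 and 0.91 relative to the DNT mean. With library size alone 11 were higher and 4 lower (median 0.26). Gzmg had 155, 160.0 and 154 CPM in DNT and 3567, 2715 and 3917 CPM in R (log2 fold change 4.44, SE 0.22, adjusted p = 5.09e-05). Gzmf went from 23.9, 23.6 and 25.2 CPM to 323, 261 and 353 CPM and Gzmd from 326, 329 and 297 CPM to 3069, 2356 and 3943 CPM, while Gzmk rose from 1.87, 2.26 and 1.89 CPM to 32.1, 22.03 and 43.3 CPM. Gzmg, Gzmf and Gzmd lie in a cluster on chromosome 14 and are close copies, so reads may be split among them, whereas Gzmk lies on chromosome 13. Prf1, perforin itself, had 1458, 1457 and 1449.5 CPM in DNT and 4125, 5039.6 and 3422 CPM in R (log2 fold change 1.53, SE 0.20, adjusted p = 0.000684). The R libraries again lay apart from DNT, and the difference held at 1.44 with the length and GC offset. Gzmb, the classic granzyme, had 17108, 17649 and 17203 CPM in DNT and 38375, 29208 and 62339 CPM in R (log2 fold change 1.32, SE 0.32, adjusted p = 0.00846), but with that offset the value was 0.18 (adjusted p = 0.387). Under it 13 of the list were higher and 4 lower, with a median of 0.23. Fasl, the death receptor ligand, was at -0.18 with adjusted p = 0.603, and at -1.11 with the offset (adjusted p = 0.000677). The 3 members that fell were Unc13d, Tbx21 and Zeb2, of which Tbx21, the T-bet factor of cytotoxic and Th1 programs, went from 76.4, 84.6 and 78.1 CPM to 28.5, 47.6 and 37.5 CPM. Unc13d and Zeb2 lost their calls with the offset, at 0.0066 and -0.08. Leaving out the third R library gave 6 members lower.

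Chemokine genes were higher in 12 and lower in 3 of 19 tested (median 1.12). Under the length and GC offset 6 were higher and 4 lower (median 0.10), and with library size alone 7 and 4 (median 0.49). The 3 that fell were the interferon-induced ligand Cxcl10, its receptor Cxcr3 and the dendritic cell chemokine Ccl22. Cxcl10 had 39.8, 42.2 and 41.6 CPM in DNT and 14.8, 10.8 and 11.8 CPM in R (log2 fold change -1.73, SE 0.15, adjusted p = 0.000188) and Cxcr3 had 5.37, 6.68 and 6.72 CPM in DNT and 1.70, 2.18 and 1.71 CPM in R (log2 fold change -1.73, SE 0.20, adjusted p = 0.000419). Neither pair of groups overlapped. Ccr1, a receptor for inflammatory chemokines, had 2.75, 2.67 and 3.18 CPM in DNT and 13.4, 10.1 and 16.5 CPM in R (log2 fold change 2.21, SE 0.22, adjusted p = 0.000265), yet it was lower than in WT (-1.81).

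The receptor that the inhibitor targets was itself expressed in every library. Adora2a, at chr10:75316877-75334784 (GRCm38), had 126, 126 and 127 CPM in DNT and 87.6, 104 and 99.3 CPM in R (log2 fold change -0.38, SE 0.13, adjusted p = 0.0317). The R libraries lay below DNT by little, and the call was lost with the length and GC offset (adjusted p = 0.307) and without any 1 of the DNT libraries or the first R library. Adora2b, the low-affinity receptor that also raises cyclic AMP, had 34.1, 34.0 and 31.3 CPM in DNT and 25.7, 27.1 and 21.1 CPM in R (log2 fold change -0.42, SE 0.14, adjusted p = 0.0292), a call likewise lost without any 1 of the DNT libraries or the first R library. Adora3, which couples to inhibitory G proteins, was scarce at 0.747, 0.557 and 0.465 CPM in DNT and 2.04, 2.74 and 1.41 CPM in R (log2 fold change 1.82, SE 0.33, adjusted p = 0.00235). Adcy7, the adenylyl cyclase typical of blood cells, had 99.8, 96.4 and 97.4 CPM in DNT and 21.1, 34.4 and 19.5 CPM in R (log2 fold change -1.96, SE 0.23, adjusted p = 0.00044), and the groups stood well apart. Of 15 tested receptor, G protein, cyclase and kinase genes, 5 were higher and 6 lower (median -0.12), shares near those of all genes, and with library size alone 1 was higher and 7 lower (median -0.67). Beside Adora3, the higher ones were the inhibitory G protein genes Gnai2 and Gnai3 and the protein kinase A genes Prkaca (-0.11 with library size alone) and Prkar1a. Without any 1 of the DNT libraries or the first R library, 3 were lower, and the median was 0.35 with the length and GC offset.

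Genes that make, remove or sense extracellular purines moved both ways, with 6 higher and 6 lower of 18 tested, shares near those of all genes (median 0.21, and -0.36 with library size alone). Without the second DNT library 3 were higher. Entpd1, which encodes CD39, did not pass the test at 0.31 (adjusted p = 0.0572), and its sign turned to -0.27 with library size alone. Nt5e, which encodes CD73 and makes adenosine from AMP, had 32.3, 31.2 and 30.9 CPM in DNT and 15.5, 13.7 and 21.0 CPM in R (log2 fold change -0.92, SE 0.18, adjusted p = 0.00304), but with the length and GC offset it was -0.30 (adjusted p = 0.273). Ada, which degrades adenosine, had 11.04, 10.3 and 10.2 CPM in DNT and 16.9, 12.9 and 16.2 CPM in R (log2 fold change 0.55, SE 0.15, adjusted p = 0.0144) and lost its call with either offset and with library size alone, where its sign turned to -0.05. The ATP-gated channel P2rx7 had 11.95, 13.7 and 11.6 CPM in DNT and 2.90, 2.74 and 1.71 CPM in R (log2 fold change -2.32, SE 0.22, adjusted p = 0.000223). Art2b, the surface ADP-ribosyltransferase that can open that channel, had 7.30, 6.49 and 8.11 CPM in DNT and 1.59, 1.63 and 2.15 CPM in R (log2 fold change -2.04, SE 0.20, adjusted p = 0.000243). Both fell in every R library to a level well under DNT, and both kept their calls with the offset. P2ry12, a receptor for ADP, had 5.43, 6.90 and 6.68 CPM in DNT and 33.3, 26.9 and 47.9 CPM in R (log2 fold change 2.50, SE 0.24, adjusted p = 0.000237), and the nucleoside transporter Slc29a3 fell by 1.47 on the log2 scale (SE 0.21, adjusted p = 0.000974). P2ry12 shares an exon with Med12l on the opposite strand, so its count is uncertain.

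Genes of the cyclic AMP and CREB pathway, factors of it as well as targets, were mostly lower in R. Of 27 tested members, 17 were lower and 6 higher, against 33.4% and 30.9% of all genes, with a median log2 fold change of -0.87 and medians of -1.15, -0.58 and -0.88 in the R libraries. WT against DNT, where 30.8% of all genes were lower, gave 17 higher and 8 lower (median 0.16). RA against ADO, which shares no library with R against DNT but is of the same sets, gave 7 higher and 18 lower (median -0.83), where 40.7% of all genes were higher and 42.3% lower. The length and GC offset left 13 lower and 5 higher with a median of -0.26. The median transcript length of the members was 5631 bases.

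The NR4A nuclear receptors, early response genes of both antigen receptor and cyclic AMP signals, fell most clearly. Nr4a1, at chr15:101254269-101274795 (GRCm38), had 272, 268 and 277 CPM in DNT and 43.4, 60.7 and 43.6 CPM in R (log2 fold change -2.47, SE 0.18, adjusted p = 0.0001). Nr4a2 had 222, 223 and 223 CPM in DNT and 37.7, 54.4 and 32.1 CPM in R (log2 fold change -2.42, SE 0.21, adjusted p = 0.000182). Both groups were tight and apart in each gene, and with the length and GC offset the values were -2.19 and -2.35. Nr4a3 was lower at -1.94 (adjusted p = 0.00129), and was named after its value was seen. Against WT Nr4a1 and Nr4a2 were -3.71 and -2.30, and for RA against ADO -2.85 and -3.01. Pde4d, a phosphodiesterase that degrades cyclic AMP, had 20.9, 21.1 and 20.01 CPM in DNT and 5.05, 7.95 and 6.15 CPM in R (log2 fold change -1.69, SE 0.18, adjusted p = 0.000371). Its relative Pde4b had 32.7, 34.4 and 34.3 CPM in DNT and 23.05, 22.7 and 18.8 CPM in R (log2 fold change -0.65, SE 0.13, adjusted p = 0.00397), but -0.02 (adjusted p = 0.855) with the offset for length and GC and 0.03 with that for length. Fos, an AP-1 subunit, was low in both groups at 6.38, 7.68 and 6.79 CPM in DNT and 3.75, 3.72 and 3.19 CPM in R (log2 fold change -0.96, SE 0.17, adjusted p = 0.00193). Crem, the CREB-like modulator that cyclic AMP induces, did not pass the test at 0.15 (adjusted p = 0.659). Its R libraries straddled DNT at 67.2, 55.5 and 120.3 CPM, and its value was -0.51 with library size alone and -0.22 without the third R library.

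Other members went up. Rgs2, a brake on G protein signals, had 24.5, 24.3 and 26.1 CPM in DNT and 79.2, 64.1 and 130.4 CPM in R (log2 fold change 1.87, SE 0.26, adjusted p = 0.000846), whereas RA against ADO differed by 0.11. Icos, a costimulator of the CD28 family, had 25.2, 25.5 and 30.6 CPM in DNT and 76.0, 63.5 and 84.3 CPM in R (log2 fold change 1.46, SE 0.16, adjusted p = 0.000371), yet it was -0.43 against WT, since WT exceeded DNT by 1.94. The sign of the Icos difference therefore depended on which untreated set was the reference, and that of Nr4a1 and Nr4a2 did not.

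The promoters of the list members Nr4a1 and Nr4a2 and of Fos, which is not on the list, all lower in R, and of the member Rgs2, which was higher, are shown because CREB acts through the cyclic AMP response element, whose full form is TGACGTCA and whose core is TGACG or, on the other strand, CGTCA. The windows are RefSeq's, from 250 bases before to 50 bases after the start (GRCm38.p6): chr15:101266596-101266895 on the plus strand for Nr4a1, chr2:57123954-57124253 on the minus strand for Nr4a2, chr12:85473640-85473939 on the plus strand for Fos and chr1:144004100-144004399 on the minus strand for Rgs2. Each is given 5′ to 3′ with every core in capitals.
Nr4a1: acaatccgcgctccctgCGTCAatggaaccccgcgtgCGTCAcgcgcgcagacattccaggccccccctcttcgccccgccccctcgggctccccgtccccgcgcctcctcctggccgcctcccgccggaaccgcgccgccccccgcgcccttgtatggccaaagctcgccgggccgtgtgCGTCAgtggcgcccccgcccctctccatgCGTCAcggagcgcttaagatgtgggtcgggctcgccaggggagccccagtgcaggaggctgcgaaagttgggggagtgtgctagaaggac
Nr4a2: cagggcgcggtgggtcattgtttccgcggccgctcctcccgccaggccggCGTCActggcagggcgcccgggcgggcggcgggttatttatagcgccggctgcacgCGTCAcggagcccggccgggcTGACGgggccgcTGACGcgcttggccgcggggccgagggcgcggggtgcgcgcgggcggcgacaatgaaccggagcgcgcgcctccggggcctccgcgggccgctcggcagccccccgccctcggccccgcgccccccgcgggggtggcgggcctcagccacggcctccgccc
Fos: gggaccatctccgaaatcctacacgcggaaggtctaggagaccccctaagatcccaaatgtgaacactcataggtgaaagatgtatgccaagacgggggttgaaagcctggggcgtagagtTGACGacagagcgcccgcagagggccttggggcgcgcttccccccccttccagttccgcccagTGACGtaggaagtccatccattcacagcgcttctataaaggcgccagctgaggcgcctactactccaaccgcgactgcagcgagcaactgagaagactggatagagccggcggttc
Rgs2: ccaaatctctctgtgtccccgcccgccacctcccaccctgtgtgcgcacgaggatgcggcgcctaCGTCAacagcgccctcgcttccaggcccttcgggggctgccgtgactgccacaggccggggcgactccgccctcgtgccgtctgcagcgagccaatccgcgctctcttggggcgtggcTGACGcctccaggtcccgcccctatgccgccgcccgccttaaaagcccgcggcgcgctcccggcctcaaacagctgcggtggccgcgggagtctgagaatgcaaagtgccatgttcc
The windows of Nr4a1 and Nr4a2 held 4 cores each, those of Fos and Rgs2 held 2 each, and none of the 4 held the full element. The core was thus present at a gene that rose as well as at genes that fell, and the windows of the falling members Pde4d and Fosl2 held none. Over the list, 20 of 28 genes had a window, 13 of them (65%) with a core and 2 (10%) with the full element, Areg and Dusp1. Among all 27025 genes with a window the shares were 23% and 2.03%, and among the 9771 of the tested genes that matched they were 35.7% and 3.7%. The list was assembled from known targets of this pathway and from factors of it such as Creb1, Crtc1 and Crtc3, whose windows held no core. A match of letters says nothing about binding in these cells.

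**Figure D3:**
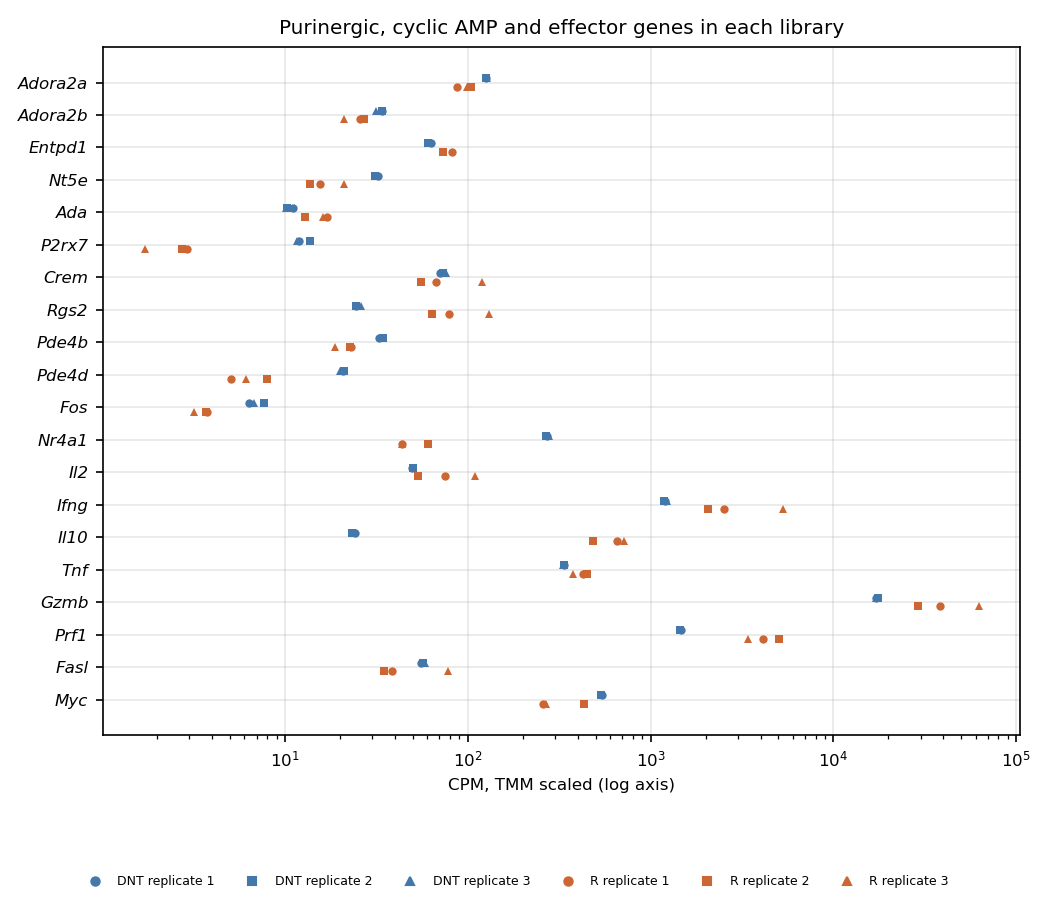
CPM (log axis) of 20 purinergic, cyclic AMP and effector genes in each of the 3 DNT and 3 R libraries. Il10, Gzmb and Prf1 lie to the right in R and Nr4a1, Pde4d and P2rx7 to the left, while the Crem and Fasl points of R lie on both sides of DNT.

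Early response and activation genes split within families. Of 17 AP-1 factors, 9 were higher and 4 lower (median 0.39, and -0.19 with library size alone). The lower ones were Fos, Fosb, Fosl2 and Mafg. Batf, an AP-1 partner of effector differentiation, had 39.8, 39.8 and 40.1 CPM in DNT and 188, 151 and 273 CPM in R (log2 fold change 2.35, SE 0.23, adjusted p = 0.000246), while Fosb had 13.96, 15.2 and 17.8 CPM in DNT and 3.63, 5.48 and 5.26 CPM in R (log2 fold change -1.71, SE 0.20, adjusted p = 0.000465). Egr3, an early target of NFAT that restrains activation, had 143, 144 and 143 CPM in DNT and 28.1, 49.8 and 27.5 CPM in R (log2 fold change -2.03, SE 0.25, adjusted p = 0.000515). Myc, the growth regulator, had 541, 538 and 537 CPM in DNT and 259, 431 and 269 CPM in R (log2 fold change -0.75, SE 0.22, adjusted p = 0.0174), a call that was lost without any 1 of the DNT libraries or the first R library. NF-kB feedback genes were lower in 10 and higher in 2 of 24 (median -0.28, and 0.06 with the length and GC offset). Bcl3 and Cd83 were the higher ones. The member with the smallest p was Nfkbiz, an atypical inhibitor of NF-kB, at 122, 127 and 126 CPM in DNT and 35.0, 35.1 and 34.6 CPM in R (log2 fold change -1.84, SE 0.12, adjusted p = 9.00e-05), and the R libraries were nearly equal. Without the first R library 6 NF-kB feedback genes were lower. Without the second 4 were higher and without the third 7, and without any 1 of the DNT libraries 1 was.

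Genes of the T cell receptor complex and its signalling did not move as one. Cd3g, Cd3d and Cd247 were higher by 1.85, 1.70 and 1.3004 on the log2 scale, with SEs of 0.25, 0.23 and 0.14. The adaptors Lat and Grb2 were the other members that rose. Cd3e, another chain of the complex, had 126, 130.4 and 134 CPM in DNT and 73.1, 98.4 and 68.2 CPM in R (log2 fold change -0.71, SE 0.17, adjusted p = 0.00761). The kinases Lck and Zap70, which act first after the receptor, did not pass the test at 0.04 (adjusted p = 0.812) and 0.10 (adjusted p = 0.518), and both signs turned with library size alone (-0.53 and -0.49). Malt1, the paracaspase that links the receptor to NF-kB, had 295, 293 and 300.4 CPM in DNT and 97.1, 104 and 65.8 CPM in R (log2 fold change -1.73, SE 0.19, adjusted p = 0.000397). Over the list of receptor signalling genes 5 were higher and 12 lower of 29 (median -0.23), and with the length and GC offset 13 were higher and 9 lower (median 0.13).

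Genes of the ribosome, which makes proteins, were higher nearly without exception. Of 78 cytosolic ribosomal protein genes, 77 were higher in R and 1 was lower, with a median log2 fold change of 2.08, and the R libraries had medians of 1.81, 1.37 and 2.77. Rpsa, a protein of the small subunit, had 1656, 1646 and 1618 CPM in DNT and 6013, 4733 and 7214 CPM in R (log2 fold change 1.87, SE 0.22, adjusted p = 0.00043). Rpl18, of the large subunit, had 766, 793 and 750.3 CPM in DNT and 3012, 2382 and 3897 CPM in R (log2 fold change 2.01, SE 0.22, adjusted p = 0.000386). All R libraries exceeded DNT, and the third was the highest in both genes and in the list medians. Rpl24 was the gene that fell, by 1.31. Ribosomal protein genes have many processed pseudogenes with near-identical sequence, so single members are uncertain. WT against DNT gave a median of -0.03, with 25 higher and 34 lower, and RA against ADO 1.82. With the length and GC offset the count was 76 and the median 1.35, and with library size alone 74 and 1.41.

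Translation factors were higher in 24 and lower in 2 of 32 (median 0.92), and with library size alone in 15 and 5 (median 0.33). The elongation factor Eef1a1 had 8079.8, 8236 and 8094 CPM in DNT and 23177, 18928 and 31555 CPM in R (log2 fold change 1.59, SE 0.26, adjusted p = 0.00149). Their median transcript length was 3757 bases, and the median was 0.88 with the length and GC offset. Eif3a and Eif4g1, scaffolds of initiation, were the members that fell, and both lost their calls with that offset, at -0.03 and -0.10. Without the second R library 4 were lower, and without the first R library or any 1 of the DNT libraries none was.

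Genes of oxidative phosphorylation, in which the respiratory chain drives ATP synthesis, were higher whether encoded in the mitochondrion or the nucleus. Of 13 mitochondrially encoded mRNAs, 12 were higher and none lower (median 1.999), and of 72 nuclear genes of the chain, 64 were higher and 1 lower (median 1.68). mt-Co2, a core subunit of cytochrome oxidase, had 12.02, 16.8 and 14.8 CPM in DNT and 85.9, 89.1 and 214 CPM in R (log2 fold change 3.15, SE 0.39, adjusted p = 0.00054). The third R library was far above the others. Ndufv3, a complex I subunit encoded in the nucleus, had 27.7, 28.1 and 27.0 CPM in DNT and 134, 98.4 and 154 CPM in R (log2 fold change 2.22, SE 0.19, adjusted p = 0.000162), and Cox4i1, of cytochrome oxidase, 85.4, 91.6 and 86.3 CPM in DNT and 290.1, 235 and 372 CPM in R (log2 fold change 1.77, SE 0.19, adjusted p = 0.000348). With the length and GC offset the medians were 0.57 and 0.79, with 10 and 52 genes higher, and the median transcript lengths were 784 and 1696.5 bases. Ndufb2, at -2.33, was the nuclear gene that fell. Mitochondrial ribosomal proteins were higher in 32 of 35 and lower in none (median 1.32, and 0.65 with the offset), for example Mrpl12 at 1.70 (SE 0.17, adjusted p = 0.000278). WT against DNT gave medians of 0.12, -0.08 and -0.13 for these lists.

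The proteasome, the complex that degrades tagged proteins, was higher in 29 and lower in none of 31 genes (median 1.21). With library size alone 14 were higher and 2 lower (median 0.52). Psmb6, a catalytic subunit, had 140.1, 143 and 141 CPM in DNT and 423, 361 and 449 CPM in R (log2 fold change 1.54, SE 0.14, adjusted p = 0.000213). The offset for length and GC left 22 higher (median 0.79), and under it Psmb5, another catalytic subunit, was -0.04 in place of 0.98.

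**Figure D4:**
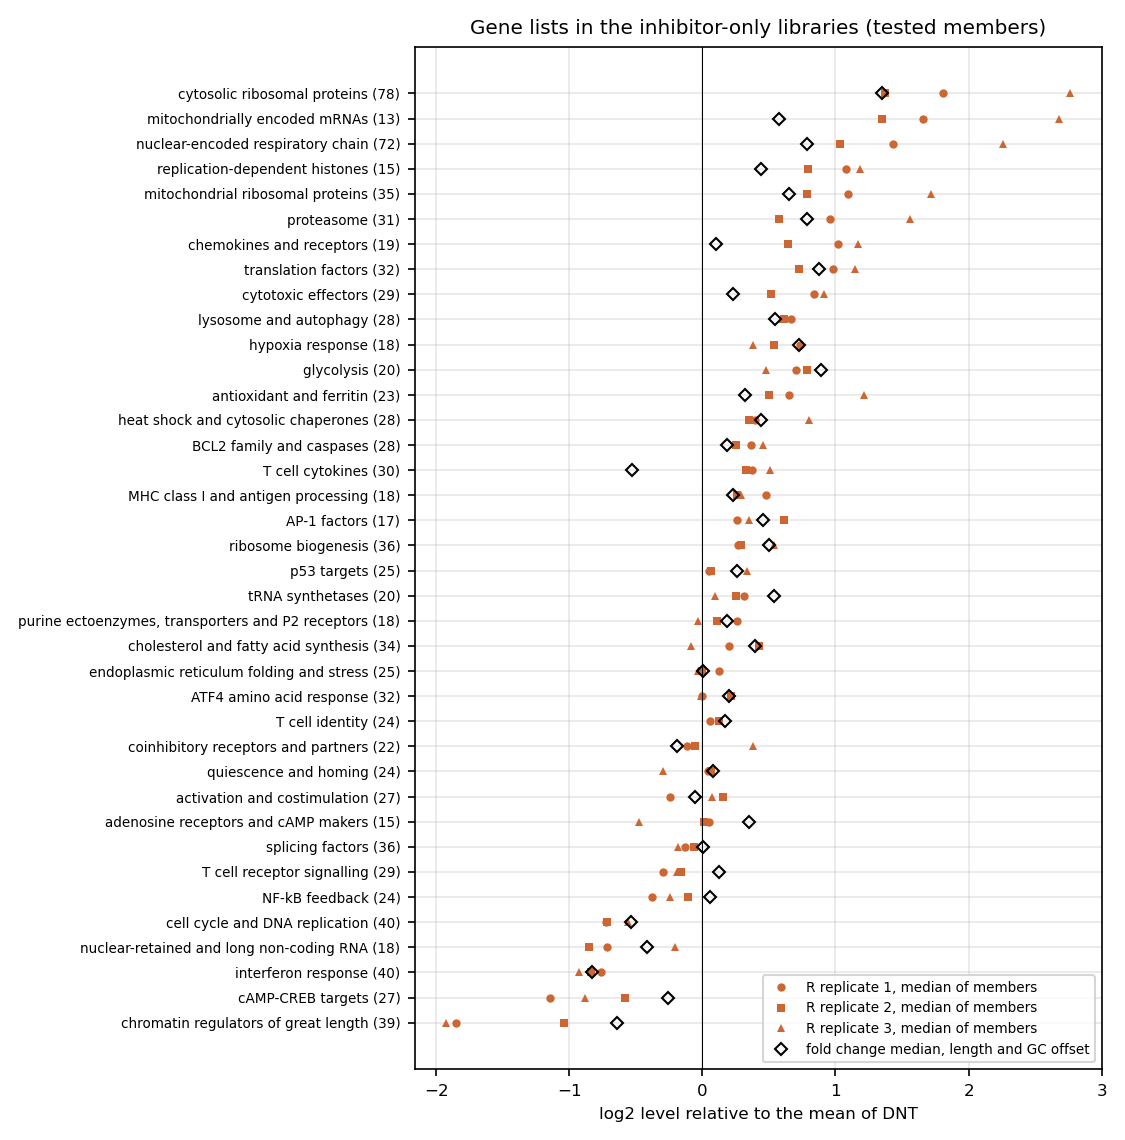
Median log2 level of the tested members of each gene list relative to the DNT mean in each R library (filled points), with the median fold change under the length and GC offset (open diamonds). The number of tested members is in brackets. The cytosolic ribosomal protein medians lie between 1.37 and 2.77 and the interferon medians between -0.76 and -0.93, and the third R library is the highest in the ribosomal, mitochondrial and proteasome lists.

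Glycolysis and hypoxia genes were more often higher than lower. Of 20 glycolysis genes 11 were higher and 3 lower (median 0.66), and of 18 hypoxia genes 9 were higher and 3 lower (median 0.70). Aldoc, an aldolase, had 13.4, 12.1 and 13.01 CPM in DNT and 63.8, 65.4 and 45.7 CPM in R (log2 fold change 2.18, SE 0.17, adjusted p = 0.000139), and the groups were apart. Pgk1 and Ldha, enzymes of the lower pathway, were higher by 1.77 (SE 0.18) and 1.37 (SE 0.18). Egln3, an oxygen sensor that HIF itself induces, had 22.2, 20.5 and 19.2 CPM in DNT and 92.5, 97.9 and 57.4 CPM in R (log2 fold change 2.003, SE 0.22, adjusted p = 0.000371). Adm, which encodes the vasodilator adrenomedullin, was scarce at 0.645, 0.594 and 0.393 CPM in DNT and 5.11, 5.16 and 4.82 CPM in R (log2 fold change 3.20, SE 0.23, adjusted p = 0.0001). The 3 glycolysis genes that fell were Hk2, Pfkp and Pfkfb3, of its entry and control steps, at -1.001, -0.92 and -0.91, of which Pfkp lost its call with the length and GC offset (-0.05). The medians were 0.89 and 0.72 under the offset. The hypoxia median was -0.25 against WT, which exceeded DNT by 0.57, and library size alone gave 0.09 and 0.10. The hypoxia genes that fell were Hif1a itself, Kdm3a and Ddit4, and Hif1a and Kdm3a lost their calls with the offset, at -0.41 and 0.0020. Without the second R library, 6 hypoxia and 5 glycolysis genes were lower, and without any 1 of the DNT libraries no hypoxia gene was.

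Lysosome and autophagy genes were higher in 18 and lower in 2 of 28 (median 0.73, and 0.55 with the length and GC offset). Ulk1, a kinase that starts autophagy, and Mcoln1, a lysosomal channel, were the lower ones (Mcoln1 at 0.07 and not called with that offset), and without the first or the third DNT library or the first R library, 1 was lower. Ctsd, a lysosomal protease, had 143, 141 and 147 CPM in DNT and 481, 502 and 445 CPM in R (log2 fold change 1.73, SE 0.14, adjusted p = 0.000116), and Sqstm1, the autophagy receptor p62, had 411, 423 and 414 CPM in DNT and 1146, 1295 and 915 CPM in R (log2 fold change 1.43, SE 0.18, adjusted p = 0.000545). Antioxidant and ferritin genes were higher in 14 and lower in 3 of 23 (median 0.53). Prdx5, a peroxiredoxin, had 97.9, 103 and 100.03 CPM in DNT and 444, 368 and 503 CPM in R (log2 fold change 2.13, SE 0.16, adjusted p = 0.000112), and Mt1, a metal-binding metallothionein, had 43.3, 44.3 and 46.7 CPM in DNT and 274, 219 and 470.1 CPM in R (log2 fold change 2.84, SE 0.29, adjusted p = 0.000297). R exceeded DNT in every library for all of these genes, whereas Gclc, Gclm and Slc7a11, which supply glutathione, were the members that fell, at -1.06, -0.63 and -0.80, of which Slc7a11 lost its call with the length and GC offset (-0.18). With library size alone the lysosome median was 0.12 and the antioxidant median -0.06.

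Interferon-induced genes, the antiviral program that interferons switch on in cells, were lower in R. Of 40 tested, 26 were lower and 3 higher, with a median of -0.82 and medians of -0.76, -0.84 and -0.93 in the R libraries, so the libraries differed little. Oasl2, of the oligoadenylate synthetase family, had 19.4, 20.7 and 21.2 CPM in DNT and 2.84, 2.65 and 2.89 CPM in R (log2 fold change -2.87, SE 0.14, adjusted p = 5.09e-05). Oasl1 had 29.95, 30.2 and 32.6 CPM in DNT and 4.43, 6.37 and 3.85 CPM in R (log2 fold change -2.65, SE 0.20, adjusted p = 0.000115). Stat2, the signal transducer, had 64.6, 64.3 and 69.5 CPM in DNT and 10.5, 17.2 and 10.2 CPM in R (log2 fold change -2.38, SE 0.22, adjusted p = 0.000222), and Ifih1, the cytosolic RNA sensor MDA5, had 52.9, 51.1 and 58.8 CPM in DNT and 15.4, 13.3 and 12.01 CPM in R (log2 fold change -1.996, SE 0.15, adjusted p = 0.000102). In each of the 4 genes every R library lay far under every DNT library. The members that rose were Isg20, Ifi35 and Ifi47 (-0.048 with library size alone), of which Ifi35 and Ifi47 lost their calls with the length and GC offset, at 0.03 and 0.14. Under the length and GC offset there were 27 lower and 2 higher with a median of -0.83. It was smaller against WT, at 17 lower and 8 higher of 40 (median -0.31), where 36.5% of all genes were lower and 32.6% higher, and WT itself gave 22 lower and 12 higher against DNT (median -0.30). RA against ADO gave 37 lower and 1 higher (median -2.24). Oasl1 was -0.46 against WT, -2.13 for WT against DNT and -6.26 for RA against ADO. Without the second R library 6 members were higher.

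Antigen presentation genes, many of them also induced by interferon, split otherwise, and 10 were higher and 5 lower of 18 (median 0.43). Psmb8, an immunoproteasome subunit, had 53.3, 52.1 and 54.0 CPM in DNT and 127, 109.6 and 108 CPM in R (log2 fold change 1.11, SE 0.13, adjusted p = 0.000431), and the lower ones were H2-Q4, H2-Q6, Tap1, Tapbp (not called with the length and GC offset, at -0.29) and Nlrc5. Nlrc5, the transactivator of class I genes, had 214, 213 and 211 CPM in DNT and 55.2, 80.4 and 41.8 CPM in R (log2 fold change -1.84, SE 0.24, adjusted p = 0.000628). Without the first or the second DNT library 4 were higher, without the third 3, and 3 were lower each time, and the median was -0.14 with library size alone. Class I genes are close copies of each other, and single members such as H2-Q4 (-0.98) are uncertain.

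Proliferation genes were lower in R than in DNT, and less so against WT. Of 40 cell cycle and replication genes, 25 were lower and 2 higher than in DNT (median -0.65, and -0.54 with the length and GC offset). Against WT 17 were lower and 5 higher (median -0.31), where 36.5% of all genes were lower and 32.6% higher. WT against DNT gave 30 lower at a smaller median of -0.17. Mki67, the marker of cycling cells, had 186, 176 and 186 CPM in DNT and 46.3, 53.1 and 36.5 CPM in R (log2 fold change -2.01, SE 0.17, adjusted p = 0.000157). Rrm2, which makes deoxynucleotides in S phase, had 85.1, 86.4 and 84.7 CPM in DNT and 31.7, 38.7 and 38.0 CPM in R (log2 fold change -1.24, SE 0.14, adjusted p = 0.000348), and the spindle motor Kif11 had 34.8, 29.6 and 35.2 CPM in DNT and 14.1, 13.7 and 14.9 CPM in R (log2 fold change -1.22, SE 0.13, adjusted p = 0.000348). No R library reached the DNT range in any of the 3. The members that rose, Pcna (1.08) and Tyms (0.79), act in replication. Without any 1 of the DNT libraries or the first R library only 1 of them passed. Replication-dependent histone mRNAs, which normally lack a poly(A) tail, went the other way, with 11 of 15 tested higher and none lower (median 1.52). The other 21 of the 36 listed did not pass the filter on low counts. Hist1h1c, a linker histone, had 9.27, 10.6 and 10.6 CPM in DNT and 75.3, 67.7 and 51.4 CPM in R (log2 fold change 2.67, SE 0.18, adjusted p = 9.51e-05), and with the length and GC offset 6 were higher (median 0.44).

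Long mRNAs of chromatin regulators were lower. A list of 39 chromatin regulators chosen for length, with a median of 14300 bases, had 37 lower and none higher (median -1.59), and 27 lower and 1 higher with a median of -0.64 under the length and GC offset. Tet2, which oxidises methylated cytosine, had 115, 112 and 114 CPM in DNT and 22.3, 20.7 and 17.1 CPM in R (log2 fold change -2.51, SE 0.15, adjusted p = 7.61e-05), and -1.64 with the offset. Long and nuclear non-coding RNA was lower in 9 and higher in 7 of 18 (median -0.72), and without any 1 of the DNT libraries 4 were higher. Malat1, a nuclear speckle RNA, had 286, 359 and 356 CPM in DNT and 38.8, 67.3 and 34.6 CPM in R (log2 fold change -2.83, SE 0.28, adjusted p = 0.000257), and Kcnq1ot1, an imprinted nuclear RNA, had 25.5, 23.7 and 26.0 CPM in DNT and 3.63, 4.18 and 6.08 CPM in R (log2 fold change -2.45, SE 0.20, adjusted p = 0.000156). Both lay far under DNT in each R library. By annotated class, 196 of 307 antisense RNAs and 256 of 298 loci to be experimentally checked (TEC) were lower, with medians of -1.94 and -3.02, while 626 of 841 processed pseudogenes, with a median length of 627 bases, were higher (median 1.66, and 0.51 with the length and GC offset). Antisense, sense-overlapping, intronic and TEC loci together took 0.0466% to 0.0613% of counts in R and 0.203% to 0.210% in DNT. The part of this difference in composition in the gene results was not tested beyond the length and GC offset.

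Genes of T cell state moved both ways, as did all genes tested, of which 30.9% were higher and 33.4% lower. Coinhibitory receptors and their partners were higher in 9 and lower in 6 of 22 (median -0.01), quiescence and homing genes in 8 and 10 of 24 (median -0.01), and T cell identity genes in 11 and 8 of 24 (median 0.07). Ctla4, the inhibitory counterpart of CD28, had 13.1, 15.1 and 17.6 CPM in DNT and 59.3, 54.8 and 52.9 CPM in R (log2 fold change 1.86, SE 0.15, adjusted p = 0.000143), but it was -1.21 against WT. Ikzf2, the Helios factor, had 133, 136 and 139 CPM in DNT and 22.8, 25.1 and 35.1 CPM in R (log2 fold change -2.30, SE 0.19, adjusted p = 0.000145). Tcf7, which encodes the memory and stemness factor TCF1, had 27.0, 28.5 and 26.7 CPM in DNT and 5.05, 8.88 and 5.93 CPM in R (log2 fold change -2.04, SE 0.22, adjusted p = 0.000333), and Bach2, another factor of quiescent cells, 23.2, 25.8 and 24.02 CPM in DNT and 6.02, 7.95 and 6.97 CPM in R (log2 fold change -1.80, SE 0.15, adjusted p = 0.000155). Each of the last 3 lay lower in every R library. Txnip, a brake on glucose uptake of the quiescence list, had 50.5, 51.1 and 52.5 CPM in DNT and 249, 227 and 169.7 CPM in R (log2 fold change 2.07, SE 0.17, adjusted p = 0.000159). Cd8a, which double negative cells should lack at the surface, had 18.0, 18.6 and 19.8 CPM in DNT and 8.12, 7.11 and 8.01 CPM in R (log2 fold change -1.28, SE 0.14, adjusted p = 0.000314). Cd8b1, the other CD8 chain, was scarce and went the other way, from 1.29, 0.742 and 0.929 CPM in DNT to 2.95, 2.93 and 2.52 CPM in R. Without the third DNT library or the first R library, 5 identity genes were lower. Library size alone gave medians of -0.63, -0.58 and -0.51 for these lists.

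Markers of other cells moved with the comparison, though most of them had too few counts to be tested. Of 24 macrophage, monocyte and neutrophil markers, 7 were tested, with Ly6g, Fcgr3, Cd14, Clec4d and Cd68 higher and Mpo and Fcgr1 lower, and the sum of the 24 was 66.1 to 75.2 CPM in R and 11.4 to 13.8 CPM in DNT. Ly6g had 0.815, 1.26 and 1.18 CPM in DNT and 37.7, 26.4 and 32.6 CPM in R and Fcgr3, an activating Fc receptor, had 1.22, 1.93 and 1.47 CPM in DNT and 20.1, 19.7 and 23.1 CPM in R (log2 fold change 3.76, SE 0.20, adjusted p = 6.09e-05). The macrophage markers Cd163 and C1qa and the granulocyte markers Elane and Lyz1 were at 0 counts in all 6 libraries, S100a8 and S100a9 at 0 in R, and Csf1r and Adgre1 at or under 0.568 CPM throughout. Others of the list had counts in R: C1qb had 1, 9 and 1 counts in R and none in DNT, C1qc had 4 counts in the second R library, and Lyz2 had 22 counts there, none in the first R library and 4 to 12 counts in the other libraries. The call for Cd68 was lost with the length and GC offset, where its sign turned to -0.16. Dendritic cell and MHC class II markers summed to 157 to 163 CPM in R and 83.1 to 87.5 CPM in DNT, with H2-Ab1, H2-Eb1 and Batf3 higher and Cd74 and Itgax lower of 8 tested, and Siglech at 0 throughout. H2-Ab1, a class II chain, had 6.15, 5.12 and 5.33 CPM in DNT and 51.5, 52.3 and 36.8 CPM in R (log2 fold change 3.08, SE 0.19, adjusted p = 7.95e-05), whereas Cd74, the class II invariant chain, had 15.8, 12.9 and 16.2 CPM in DNT and 7.61, 9.39 and 6.82 CPM in R (log2 fold change -0.91, SE 0.18, adjusted p = 0.0031). B cell markers had 3 of 18 tested and summed to 38.3 to 48.8 CPM in R and 24.8 to 28.3 CPM in DNT, nearly all of it Ighm, with Pax5 and Iglc2 at 0 throughout. Stroma and endothelium markers summed to 142 to 176 CPM in R and 56.0 to 58.0 CPM in DNT, nearly all of it Pecam1, and Col3a1 was at 0 in R. Red cell and platelet markers were at or under 3.19 CPM in sum, with Slc4a1 and Hbb-bs among those at 0 throughout. The part of these cells in the results above was not tested.

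Of 12 tested markers of NK, γδ and invariant T cells 4 were higher and 1 was lower (median 0.11), where 30.9% of all genes were higher and 33.4% lower. With the length and GC offset 4 were higher and 5 lower (median -0.50), and with library size alone 4 and 6 (median -0.56). Trdc, the constant chain of the γδ T cell receptor, had 1.97, 2.003 and 2.001 CPM in DNT and 53.2, 46.3 and 60.6 CPM in R (log2 fold change 4.74, SE 0.17, adjusted p = 3.95e-05), and the variable segment Trdv4, with counts in 1 DNT library, had 0, 0.186 and 0 CPM in DNT and 3.63, 3.02 and 4.08 CPM in R (log2 fold change 5.78, SE 0.65, adjusted p = 0.000405). Ncr1, the NK receptor NKp46, had 0.136, 0.0742 and 0.143 CPM in DNT and 5.85, 4.09 and 7.04 CPM in R (log2 fold change 5.50, SE 0.36, adjusted p = 9.09e-05), and Klrb1c, the NK1.1 antigen, had 5.54, 4.19 and 3.68 CPM in DNT and 19.6, 16.2 and 35.1 CPM in R (log2 fold change 2.40, SE 0.32, adjusted p = 0.000714). All R libraries lay above all DNT libraries in these 4 genes, and Zbtb16, the PLZF factor of innate-like T cells, was the member that fell (-2.27). Klra1 and Klra3, NK receptors of the Ly49 family, were lower than DNT in the first and second R libraries and higher in the third, and did not pass the test at -0.38 and -1.04 (adjusted p = 0.493 and 0.142), but did with the length and GC offset (-1.63 and -2.69). Sox13, a factor of γδ T cells, did not pass at -1.12 (adjusted p = 0.0866). Trdc was 3.57 higher in WT than in DNT and 1.23 higher in R than in WT. The summed level of the list was 149 to 353 CPM in R and 156 to 163 CPM in DNT, with the third R library the highest. Without that library 3 members were lower, and without the first or second R library 2 were.

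**Figure D5:**
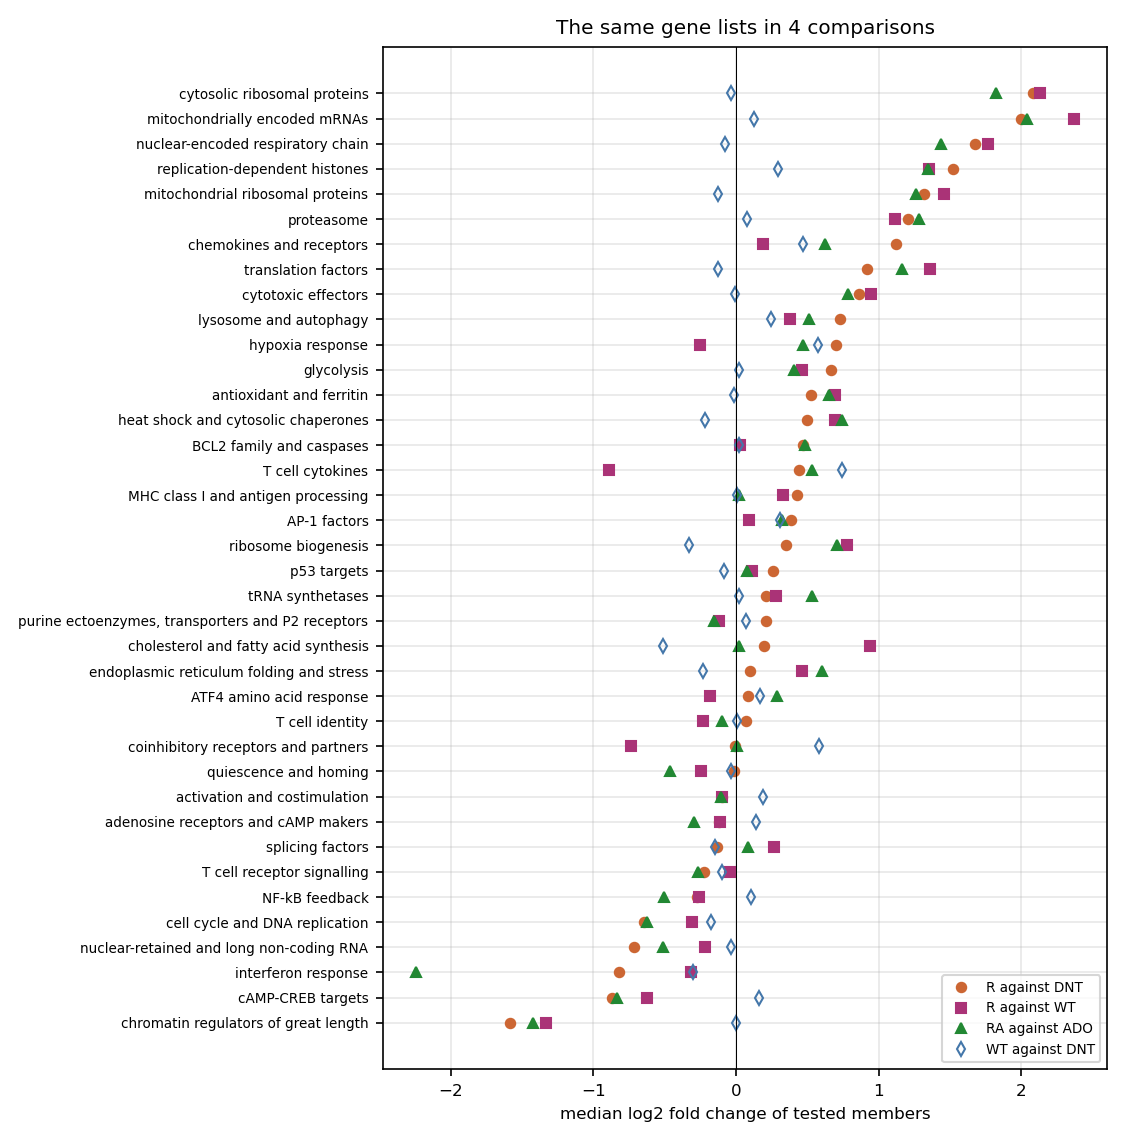
Median log2 fold change of the tested members of each gene list (horizontal axis) in R against DNT, R against WT, RA against ADO and WT against DNT. R against DNT, R against WT and WT against DNT share libraries with each other and are not independent. The cytosolic and mitochondrial ribosomal, respiratory and mitochondrially encoded medians lie between 1.26 and 2.37 in the 3 comparisons that hold the inhibitor on one side and between -0.13 and 0.12 in WT against DNT.

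Set beside the other comparisons, the list medians can be read against either untreated group. The untreated groups also differed in markers of other cells. In WT against DNT, 11 of 14 tested B cell markers were higher and 0 lower (median 2.92). Of macrophage, monocyte and neutrophil markers 13 of 15 were higher and 1 lower (median 1.97). Red cell and platelet markers had 5 of 6 higher and 0 lower (median 3.42). Of 13 B cell markers tested in R against WT, 11 were lower and 1 higher (median -3.77). The part of such cells in the differences from WT was not tested. R against WT had 4734 genes (32.6%) higher and 5305 (36.5%) lower of 14532, WT against DNT 4765 (32%) and 4587 (30.8%) of 14877, and RA against ADO 5750 (40.7%) and 5969 (42.3%) of 14123. At least 2-fold, WT against DNT had 1383 higher and 633 lower, fewer than R against DNT. Ribosomal, respiratory, proteasome, translation and cytotoxic lists had medians of 2.13, 1.77, 1.11, 1.36 and 0.94 against WT. Chemokines (0.19), T cell cytokines (-0.89), hypoxia genes (-0.25) and coinhibitory receptors (-0.73) had other medians there. Whether any of these goes with the inhibitor or with the set cannot be told apart.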

How the data were processed

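Total RNA was taken with Trizol and sequenced from standard Illumina libraries, per the labels' protocols. Reads were aligned with HISAT2 2.1.0 to GRCm38, per the submitters' processing notes. The deposited tables hold whole-number counts per Ensembl gene, 6 libraries each, made by the authors. For the counting tool, annotation and strand setting, nothing is given in the sources used here. The table with WT lists 52550 genes and each of the other tables lists 53465. Symbols, transcript lengths (all exons of a gene merged) and GC content came from GENCODE M21, which held 99.7% to 99.8% of the IDs, and lengths were known for 14112 of the 14128 genes tested.

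Groups were taken from the sample labels. R against DNT was fitted on its 6 libraries by edgeR 4.0.16 (R 4.3.3), using filterByExpr, TMM factors and the two-sided quasi-likelihood test with robust dispersions. Adjusted p values are Benjamini-Hochberg over all genes tested, with a threshold of 0.05. R against WT, WT against DNT and RA against ADO were fitted likewise. The fit gave each gene 1 dispersion over both groups although R varied more than DNT. An SE is the log2 fold change divided by the square root of F. List medians per library used log2 of CPM plus 0.5, relative to the DNT mean. The offsets removed a smooth trend of each library's log ratio over transcript length, or over length and GC, with splines of 5 degrees of freedom.

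The rule named the 12 largest rises and 12 largest falls among protein-coding genes that passed the test, reached a mean of 10 CPM in R or DNT, had groups that do not overlap and kept their sign with every scaling tried. It also named the 4 tested members with the smallest p of each of 44 gene lists, and a panel of 20 genes. Some genes that the rule covers are not reported here. The comparison, lists, panel and rule were chosen with earlier results of these data known. Alternatives were other scalings, DESeq2 1.42.0, limma-voom (limma 3.58.1), other filters, a fit of 12 libraries, the replicate number as a block, a minimum fold change, the length offset and leaving out each library. Runs on simulated counts checked that no changed gene was called in the wrong direction and that the length offset removed an added trend. They set no limit on the share of false calls. Promoters came from RefSeq (GRCm38.p6).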

Additional observations from a re-analysis of the deposited data

Results flagged for a closer look

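In 4 genes every R library lay on one side of every DNT library and every RA library on the opposite side of every ADO library, so the inhibitor comparison had opposite signs without and with adenosine. The difference was not tested. The log2 fold change was 0.64 without and -0.13 with adenosine for Ifi35 and 0.58 and -0.53 for Ifi47, both interferon-induced. It was -0.77 and 0.43 for the cytokine gene Il22 and -0.45 and 0.12 for the initiation factor gene Eif3a. The R against DNT sign turned for Ifi35 (-0.032) and Eif3a (0.12) with the transcript length offset, and for Ifi47 (-0.048) with library size alone. The 4 were among genes chosen after their values were seen. The share of all genes with such opposite signs is not given here, so the count of 4 cannot be judged against it. In R against DNT alone, groups did not overlap in 35.2% of all genes tested with R higher and in 39% with R lower.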

How the results depend on the processing

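With library size alone 2137 genes were higher in R than in DNT, 2340 higher in R than in WT and 3423 higher in RA than in ADO. The other counts of all genes stayed within 1.5 times of the values given under every alternative run for them, among them 4684 higher and 5474 lower with DESeq2, 4028 and 4115 with limma-voom and 3009 and 3332 against a log2 fold change of 0.5. Leaving out a library in turn gave 3526 to 4983 higher and 3909 to 5358 lower. Of 201 genes named, 201 kept direction and call with RLE factors, 196 with DESeq2 and 162 with the length and GC offset.

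Signs turned with library size alone for Ada (-0.048), Crem (-0.51), Entpd1 (-0.27), Ifi47 (-0.048), Lck (-0.53), Prkaca (-0.11), Tnf (-0.25) and Zap70 (-0.49). With the transcript length offset they turned for Cd68 (-0.17), Eif3a (0.12), Hspa4l (0.21), Ifi35 (-0.032), Il2 (-0.43), Kdm3a (0.10), Pde4b (0.032), Psmb5 (-0.18), Slc7a11 (0.021), Tnf (-0.40) and Zeb2 (0.13). With the length and GC offset they turned for Cd68 (-0.16), Il2 (-0.87), Kdm3a (0.0020), Mcoln1 (0.071), Psmb5 (-0.041), Srebf1 (0.013), Tnf (-0.41) and Unc13d (0.0066). Leaving out a library in turn, Crem ranged from -0.22 (without the third R library) to 0.38 and Fasl from -0.61 to 0.044 (without the second). The cause was not tested.

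Same-numbered DNT and R libraries did not deviate together (correlations of 0.0049, -0.0209 and 0.0069). The DNT libraries hardly differed from each other (coefficient of variation 2.44%), so these correlations cannot show whether the numbers pair the libraries. With the replicate number as a block 4130 genes were higher and 4508 lower in R than in DNT, 4467 and 5161 in R than in WT, 4720 and 4568 in WT than in DNT, and 5723 and 5918 in RA than in ADO. Of the named genes 188 kept direction and call, 12 lost the call and 1 gained it. Snrpf and Trdv4 had few counts, and both kept their calls under every alternative run for them.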

Other observations

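Genes of cholesterol and fatty acid synthesis depended on which untreated set was the reference. Of 34 tested, 13 were higher and 5 lower in R than in DNT (median 0.20, and -0.38 with library size alone), whereas R against WT had 26 higher and 3 lower (median 0.94) and WT against DNT 1 higher and 30 lower (median -0.51). The comparisons share libraries. Those lower than in DNT included Fads1, Acaca, Srebf1 and Acly, of which the last 3 lost their calls with the length and GC offset (-0.16, 0.013 and -0.38). Mvd, an enzyme of the mevalonate pathway, was 1.21 against DNT (SE 0.12, adjusted p = 0.000257), 2.19 against WT and -0.93 for WT against DNT. Without any 1 of the DNT libraries 2 members were lower than in DNT, without the first R library 3 and without the second 8.

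Genes of cell death and the p53 response moved both ways, with 13 of 28 BCL2 family and caspase genes higher and 6 lower (median 0.47) and 8 of 25 p53 targets higher and 6 lower (median 0.26). Of all genes tested 30.9% were higher and 33.4% lower. With library size alone the list medians were -0.11 and -0.33, beside -0.62 over all genes tested. Bad, a promoter of apoptosis, had 7.37, 7.87 and 7.11 CPM in DNT and 21.9, 17.1 and 24.2 CPM in R (log2 fold change 1.496, SE 0.17, adjusted p = 0.00039), and every R library stood above every DNT library. Phlda3, a p53 target that restrains AKT, had 26.3, 27.6 and 26.9 CPM in DNT and 49.1, 57.8 and 62.2 CPM in R (log2 fold change 1.07, SE 0.14, adjusted p = 0.000618).

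Genes that serve protein synthesis without being ribosomal proteins had smaller medians. Ribosome biogenesis had 17 higher and 5 lower of 36 (median 0.35), tRNA synthetases 7 and 0 of 20 (median 0.21), and cytosolic chaperones 15 and 3 of 28 (median 0.50). With library size alone the 3 medians were -0.26, -0.36 and -0.12, beside -0.62 over all genes tested. Polr1c, shared by RNA polymerases I and III, had 83.3, 86.4 and 83.1 CPM in DNT and 211, 179.7 and 198 CPM in R (log2 fold change 1.22, SE 0.13, adjusted p = 0.000327). The biogenesis genes that fell were Polr1a, Polr1b, Tcof1, Utp20 and Heatr1, and the chaperone genes Hsf1, Hsph1 and Hspa4l. Without the second R library 9 biogenesis genes were lower. Without the third, 12 synthetase genes were higher and without any 1 of the DNT libraries 4 were, and 7 to 9 chaperone genes were higher without 1 of these.

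The ATF4 response to amino acid shortage had 12 higher and 10 lower of 32 (median 0.09), folding and stress genes of the endoplasmic reticulum 6 and 4 of 25 (median 0.09), and activation and costimulation genes 11 and 9 of 27 (median -0.10). With library size alone these were 3 and 15 (median -0.48), 2 and 13 (median -0.46) and 3 and 14 (median -0.66). Of all genes tested 30.9% were higher and 33.4% lower, and with library size alone 15.1% and 49.2% (median -0.62). Of the stress genes Ern1, Sel1l, Syvn1 and Hyou1 fell, of which Sel1l and Hyou1 lost their calls with the length and GC offset (-0.20 and -0.31). Without any 1 of the DNT libraries 7 activation genes were higher. Splicing factors had 9 higher and 14 lower of 36 (median -0.13, and 7 and 20 with a median of -0.72 with library size alone), and without any 1 of the DNT libraries or the first R library 7 or 8 were lower. At few counts, Snrpf, a core protein of the spliceosomal snRNPs, had 1.02, 1.48 and 1.04 CPM in DNT and 0.0568, 0.139 and 0 CPM in R (log2 fold change -3.87, SE 0.55, adjusted p = 0.000914), while Snrpd2, another core protein, had 82.6, 85.4 and 84.1 CPM in DNT and 248, 183 and 533 CPM in R (log2 fold change 1.93, SE 0.37, adjusted p = 0.00307). The groups did not overlap in either gene. Slc1a5, a glutamine carrier of the ATF4 list, had 866, 866 and 885 CPM in DNT and 261, 418 and 329 CPM in R (log2 fold change -1.38, SE 0.20, adjusted p = 0.000974).

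Of 63 T cell receptor variable segments tested, 29 were higher and 4 lower (median 0.43, and -0.66 with the length and GC offset). Among them Trdv5 and Trdv1, of the δ chain, were higher by 4.85 (SE 0.49) and 3.84 (SE 0.35), and the 4 that fell were Trav9-4, Trav8-1, Trav7-5 and Trav7-4, of the α chain, with log2 fold changes from -1.44 to -0.88. Without any 1 of the DNT libraries Trav8-1, Trav7-5 and Trav7-4 lost their calls. These segments were named after their values were seen, and segments of a family are close copies. Most of the segments that rose are not named, so no contrast between δ and α chains can be read from these.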
